A study of Mus musculus with 18 samples.

Results

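The response of 3T3-L1 adipocytes to GQ16 was taken from 6 of the 18 arrays of the series, the 3 titled as GQ16 and the 3 titled as DMSO, and it was read over all genes measured. GQ16 was given at 10 µM for 24 h, and DMSO is the solvent control of the same 24 h. Both groups were 3T3-L1 cells, a mouse embryonic fibroblast line that becomes fat-storing adipocytes in culture, used 7 days into differentiation. The other 12 arrays, 3 per compound, carried 100 nM rosiglitazone, 25 µM sodium diclofenac, 10 µM indomethacin or 75 µM ibuprofen under the same schedule. They entered the same fit, and GQ16 was tested directly against rosiglitazone and against indomethacin, the compound given at the same molar dose. The labels do not say whether the 3 samples of a group were separate cultures, and p-values here describe only how these 3 samples varied, which could be technical.

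PPARγ is a nuclear receptor that pairs with RXR on DNA and switches on genes for lipid uptake, storage and adipocyte identity. Rosiglitazone, a thiazolidinedione, is a full agonist of it, and GQ16 has been described as a partial agonist that raises classical PPARγ target genes less. Ligands can also block the phosphorylation of PPARγ by the kinase Cdk5, which alters a separate group of adipocyte genes. The series asks how non-steroidal anti-inflammatory drugs and GQ16 act on this receptor.

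Values are normalized log2 intensities, and each was read against a background of 6.18, the level that 95% of probes for olfactory and related receptors stayed under. Per array, 42.1% of the 45281 probes exceeded that level, and 10959 genes were tested. The root mean square deviation of an array from its group mean was 0.179 to 0.193 on the GQ16 arrays and 0.120 to 0.207 on the DMSO arrays, with DMSO replicate 3 the highest. By the labels, the arrays lay on 3 slides, with GQ16 replicate 1 on slide 2 and GQ16 replicates 2 and 3 on slide 3, against DMSO replicates 1 and 2 on slide 1 and DMSO replicate 3 on slide 2. Slide 2 alone held both groups, so each change below was also computed with slide as a block and within slide 2 as GQ16 replicate 1 minus DMSO replicate 3. The 13 measured adipocyte markers, among them Adipoq, Plin1, Cebpa and Lipe, lay above background on all 6 arrays, and their mean level was 11.7 to 11.8 on GQ16 arrays and 11.7 on DMSO arrays. Of 15 macrophage markers 3 were measured, at a mean level of 6.18 to 6.35 on GQ16 arrays and 6.19 to 6.28 on DMSO arrays, and Adgre1, Ptprc, Cd68 and Itgam were not among them. Endothelial markers gave 3 of 10 and skeletal muscle markers 3 of 10, without Pecam1, Cdh5, Myod1 or Ckm. Osteoblast and chondrocyte markers gave 4 of 10, without Runx2 or Sp7 but with Alpl, Comp and Ibsp. Mean levels on GQ16 arrays were 6.85 to 7.06 for endothelial, 6.28 to 6.37 for muscle and 7.80 to 7.92 for osteoblast and chondrocyte markers. On DMSO arrays they were 6.82 to 7.04, 6.12 to 6.24 and 7.73 to 7.82. Of these markers, 2 endothelial, 0 muscle and 3 osteoblast or chondrocyte ones lay above background on all 6 arrays. None of the macrophage, endothelial, muscle, osteoblast or chondrocyte markers passed the test, and 2 of them were higher at an unadjusted p under 0.05. In whole-culture RNA, fewer cells of a type and less RNA per cell cannot be told apart.

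GQ16 changed few genes and mostly by less than 2-fold. The adjusted p from limma, with Benjamini-Hochberg adjustment over all genes, was under 0.05 for 157 of 10959 genes (1.43%), of which 75 rose (0.684%) and 82 fell (0.748%). Only Acaa1b, a peroxisomal thiolase of fatty acid β-oxidation, rose by more than 2-fold, and Kcnn3, BC005537, Lox and Phkg1 fell by more than 2-fold. The median change was 0.66 on the log2 scale among the 75 that rose and -0.67 among the 82 that fell, beside 0.0088 over all genes tested. Counts against the same DMSO arrays were 1985 for rosiglitazone (18.1%), 230 for diclofenac (2.1%), 1121 for indomethacin (10.2%) and 1037 for ibuprofen (9.46%), at doses that differ between the compounds. At an unadjusted p under 0.05, 1867 genes (17%) differed between GQ16 and DMSO, 980 higher (8.94%) and 887 lower (8.09%).

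**Figure D1:**
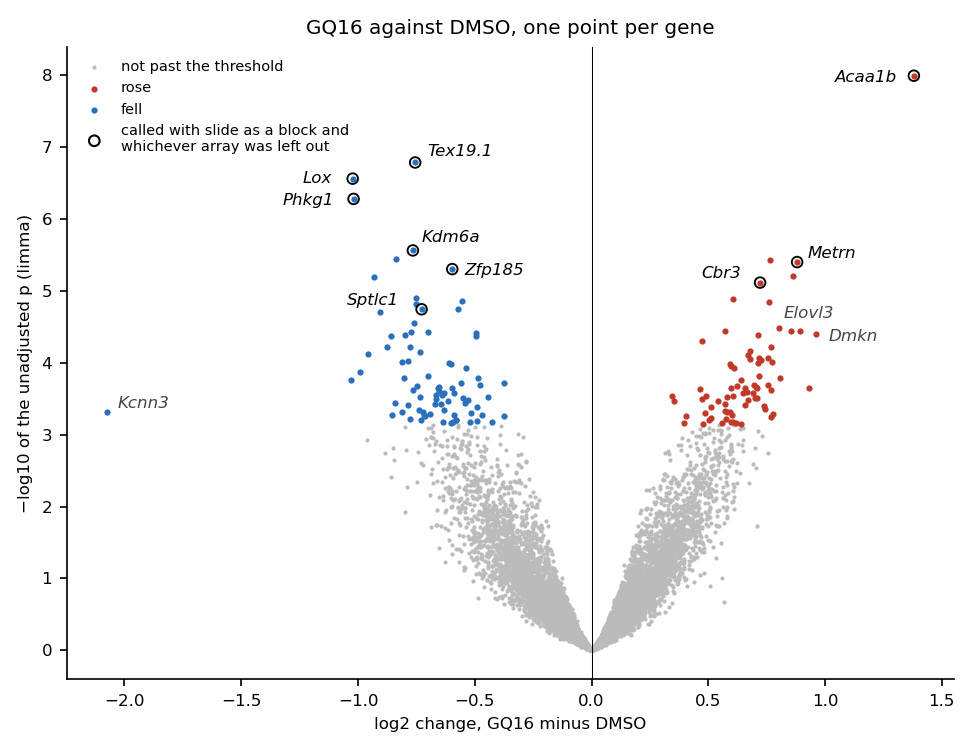
Each point is 1 of the 10959 genes tested, with its log2 change (GQ16 minus DMSO) on the horizontal axis and −log10 of its unadjusted limma p on the vertical axis. The 75 genes that rose (red) and the 82 that fell (blue) lie mostly within 1 log2 unit of 0, Acaa1b and Kcnn3 lie outside the rest, and rings mark the 9 genes whose call survived the slide block and each of the 6 fits lacking an array.

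Many of these calls were lost once slide was a block. All 157 genes had the same sign with slide as a block and within slide 2, but the slide 2 pair is part of the contrast that chose them, and on the other 4 arrays of both groups slide and group cannot be told apart. Within slide 2 the difference of 64 of the 157 departed from the reported change by more than the SD of the replicates, both groups combined. The median size of the change was 0.67 without the block, 0.60 with it and 0.56 within slide 2, where there is 1 array a side and no test. With the block, 32 of the 157 stayed under the threshold, 11 that rose and 21 that fell. Some calls were lost though the change did not shrink, such as Krt79 (0.77, and 0.78 with the block, limma adjusted p = 0.056). Whether slide itself or a less precise estimate cost these calls was not tested. In 9 genes the call held under the slide block and in each of the 6 fits lacking an array: Acaa1b, Cbr3 and Metrn, which rose, and Lox, Phkg1, Tex19.1, Zfp185, Sptlc1 and Kdm6a, which fell. Of these, Tex19.1, Zfp185, Sptlc1 and Kdm6a were named after their values were seen. The calls rested above all on the DMSO arrays of slide 1: without DMSO replicate 1, 11 of the 157 kept their call, and without DMSO replicate 2, 15 did.

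Acaa1b had levels of 8.99, 9.09 and 9.57 on the GQ16 arrays, against 7.89, 7.77 and 7.84 on the DMSO arrays. Every GQ16 array lay above every DMSO array, as in all 75 genes that rose, and here by more than 1 log2 unit. The rise was 1.38 ± 0.16 (log2, SE, n = 3 each), or 2.60-fold, with a limma adjusted p of 1.1e-04. It was 1.33 with slide as a block and 1.15 within slide 2. The gene encodes 3-ketoacyl-CoA thiolase B, which splits acetyl-CoA from long fatty acyl chains in peroxisomes, and in rodents it is a classical target of PPARα. The companion gene Acaa1a, which encodes thiolase A, had a difference of -0.09.

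The promoter of Acaa1b is shown because this gene had the largest rise. It is the RefSeq sequence of GRCm38.p6 on the minus strand at chr9:119157044-119157343, from 250 bases before the start of transcription to 50 after it, and capitals mark the 50 bases from the start on.
Acaa1b: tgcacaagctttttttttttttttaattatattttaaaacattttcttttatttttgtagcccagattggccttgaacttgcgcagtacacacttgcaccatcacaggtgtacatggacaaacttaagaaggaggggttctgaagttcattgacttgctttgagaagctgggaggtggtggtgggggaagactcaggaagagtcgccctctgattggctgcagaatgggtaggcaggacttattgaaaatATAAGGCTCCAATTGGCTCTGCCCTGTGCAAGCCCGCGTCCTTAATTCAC
PPAR and RXR bind direct repeats of the hexamer AGGTCA spaced by 1 base (DR1), searched here as AGGTCANAGGTCA on both strands. The window of Acaa1b held 0 copies of the hexamer. Over 32851 promoters of this length, 13 (0.0396%) held the exact repeat and 5340 (16.3%) the hexamer, which every repeat also contains. Of 79 promoters of 63 genes that rose, 0 held the repeat and 11 (13.9%) the hexamer, against 0 and 12 of 85 promoters (14.1%) of 62 genes that fell. These shares are for 300-base windows only.

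Cbr3, a carbonyl reductase that uses NADPH, had levels of 12.73, 12.58 and 13.02 on GQ16 arrays and 12.13, 12.04 and 12 on DMSO arrays. Its rise was 0.72 ± 0.13 (log2, SE; limma adjusted p = 0.0070), 0.82 with slide as a block and 0.74 within slide 2, and a second probe of the gene gave 0.66. Metrn, which encodes the secreted neurotrophic factor meteorin, had levels of 8.40, 8.79 and 8.52 on GQ16 arrays and 7.68, 7.60 and 7.78 on DMSO arrays. Both genes were also called under the slide block and in each fit lacking an array. Neither gene's groups overlapped, which was so for all 75 genes that rose. Metrn rose by 0.88 ± 0.15 (limma adjusted p = 0.0054), with 0.81 under the block and 0.62 within slide 2.

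**Figure D2:**
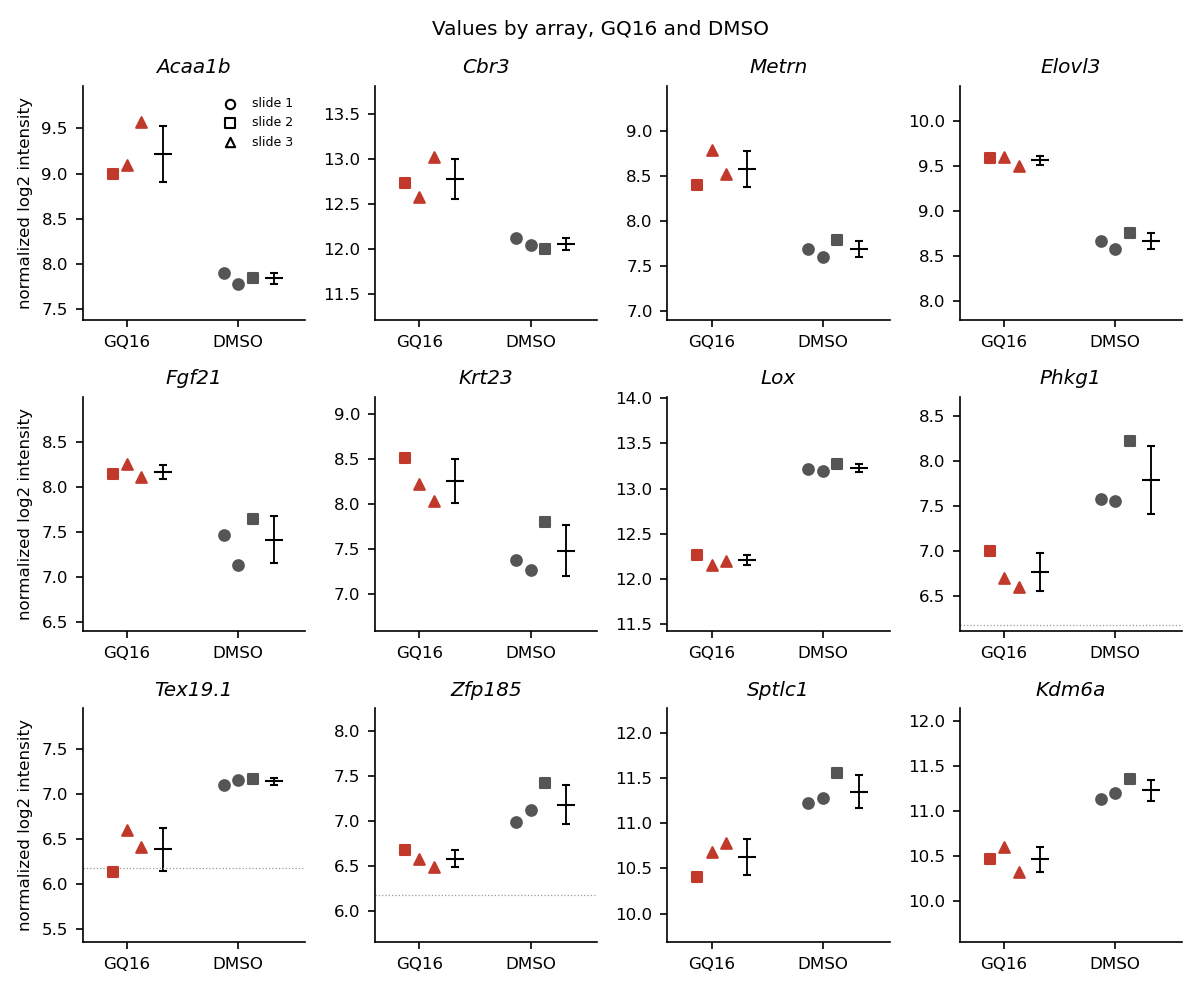
Normalized log2 intensity of 12 genes on the 3 GQ16 arrays (red) and the 3 DMSO arrays (grey), with the slide of each array as the marker and the group mean ± SD beside the points; all panels span the same range of log2 units, and a dotted line marks background where it falls inside the panel. In all 12 panels the GQ16 arrays lie on one side of the DMSO arrays, as in all 157 called genes from which the 12 were taken. Over all genes 10.4% had every GQ16 array above and 8.67% below every DMSO array. For Fgf21 and Krt23 the DMSO array of slide 2 is the one nearest to the GQ16 arrays.

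Among the other large rises were genes of lipid metabolism, insulin signalling and epithelial proteins. Elovl3, an elongase of very long saturated and monounsaturated fatty acids that is abundant in brown fat, had levels of 9.58, 9.59 and 9.50 on GQ16 arrays and 8.67, 8.57 and 8.76 on DMSO arrays. It rose by 0.89 ± 0.18 (limma adjusted p = 0.014), with 0.82 within slide 2 and an adjusted p of 0.085 with slide as a block. Irs2, an adaptor that passes the signal of the insulin receptor on, had levels of 10.85, 11.04 and 11.15 on GQ16 arrays and 10.02, 9.90 and 10.54 on DMSO arrays. It rose by 0.86 ± 0.15 (limma adjusted p = 0.0064) and by 0.74 with the block (adjusted p = 0.045), but the difference within slide 2 was 0.31. Klf5, a transcription factor needed early in adipocyte differentiation, rose by 0.85 ± 0.17 and Fgf21, a secreted metabolic hormone, by 0.75 ± 0.17, each with an adjusted p over 0.05 once slide was a block (0.073 and 0.11).

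Genes best known from epithelia stood among the 20 largest rises, a grouping made after their values were seen: Dmkn (dermokine) by 0.96, Sbsn (suprabasin) by 0.81, and the keratins Krt23 and Krt79 by 0.77 each. Other epithelial genes fell, with Trp63, a transcription factor of stratified epithelia, at -0.55 and the mucin Muc13 at -0.44. Dmkn spread most, at 9.74, 10.76 and 10.04 on GQ16 arrays against 9.37, 8.99 and 9.30 on DMSO arrays. None of these 4 kept an adjusted p under 0.05 with slide as a block (0.056 to 0.16). The remaining large rises included Mrto4, a ribosome assembly factor, at 0.93, Wdr89 at 0.80, the mitotic regulators Cdca3 and Birc5 (survivin) at 0.77 each, Tubg1, which nucleates microtubules, at 0.74, Sulf2, an extracellular heparan sulfatase, at 0.76, and Ppp2r5d, a regulatory subunit of protein phosphatase 2A, at 0.76. Wdr89 and Ppp2r5d stayed under the threshold with the block, at adjusted p of 0.038 and 0.045. Mrto4 had levels of 8.97, 9.07 and 9.05 on GQ16 arrays and 8.30, 8.60 and 7.39 on DMSO arrays, so that DMSO replicate 3 set much of its difference.

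Lox encodes lysyl oxidase, the enzyme that crosslinks collagen and elastin, and it fell. Its levels were 12.27, 12.15 and 12.20 on GQ16 arrays, against 13.22, 13.19 and 13.28 on DMSO arrays. The groups lay about 1 log2 unit apart with little spread in either, and the fall of 1.02 ± 0.14 on the log2 scale, a change of 2.03-fold, had a limma adjusted p of 0.0010. Lox also fell by 0.95 with slide as a block (adjusted p = 0.013) and differed by -1.01 within slide 2. Together with Acaa1b and Kcnn3 it was 1 of 3 genes called when the fit held only the 6 arrays of the 2 groups.

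Phkg1, the catalytic subunit of the phosphorylase kinase of muscle, had levels of 7.00, 6.70 and 6.59 on GQ16 arrays and 7.58, 7.55 and 8.22 on DMSO arrays. It fell by 1.02 ± 0.15 on the log2 scale (limma adjusted p = 0.0014) and by 1.14 with slide as a block. Tex19.1, known from germ cells and placenta, had levels of 6.14, 6.61 and 6.42 on GQ16 arrays and 7.10, 7.16 and 7.17 on DMSO arrays, and the first GQ16 value is below background. Zfp185, an actin-associated LIM protein, had levels of 6.68, 6.58 and 6.49 on GQ16 arrays and 6.99, 7.13 and 7.42 on DMSO arrays. These 2 genes are dim, where the deposited scale compresses differences, and they fell by 0.76 ± 0.10 and 0.60 ± 0.10 on the log2 scale.

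Sptlc1, a subunit of the enzyme that starts sphingolipid synthesis, had levels of 10.40, 10.68 and 10.79 on GQ16 arrays and 11.22, 11.28 and 11.56 on DMSO arrays. Kdm6a, a demethylase of histone H3 lysine 27, had levels of 10.47, 10.60 and 10.33 on GQ16 arrays and 11.13, 11.20 and 11.36 on DMSO arrays. Neither gene's groups overlapped, which was so for all 82 genes that fell. The falls were 0.73 ± 0.14 and 0.77 ± 0.13 on the log2 scale (limma adjusted p = 0.010 and 0.0054). Kdm6a has 2 further probes, whose differences were -0.44 and -0.15.

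The largest fall, that of Kcnn3, a calcium-activated potassium channel, was uneven. The levels on GQ16 arrays, 6.17, 5.81 and 5.98, were all below background, against 8.39, 8.40 and 7.40 on DMSO arrays. Measured against the background level, Kcnn3 was at least 3.69-fold lower with GQ16 (limma adjusted p = 0.043), and the call was lost with slide as a block (0.21) and kept in only 1 of the 6 fits that left out an array. Its level also ran across 5.75, 9.16 and 7.23 on the 3 rosiglitazone arrays.

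The other large falls held genes of many kinds. They included BC005537 at -1.03, Spag9, a scaffold of the JNK kinase pathway, at -0.99, Retreg1, a receptor for autophagy of the endoplasmic reticulum, at -0.96, the phosphatase Dusp7 at -0.91, Birc2, an inhibitor of apoptosis, at -0.88, the autophagy kinase Ulk2 at -0.84, and Mob1a, a cofactor of the Hippo pathway kinases, at -0.84. Birc2 and Mob1a stayed under the threshold with slide as a block, at adjusted p of 0.046 and 0.013. Abi3bp, an extracellular matrix protein, fell by 0.93 on the log2 scale, while its other probe gave 0.07.

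Most genes activated through PPARγ did not pass the test, which was also so over all genes. Of 31 measured target genes 1 rose, Fgf21, and 0 fell, beside 0.684% and 0.748% of all genes. By unadjusted p 5 of the targets were higher and 0 lower, beside 8.94% and 8.09% of all genes. The median change of the 31 targets was 0.04 with GQ16. Against the same DMSO arrays it was 0.26 with rosiglitazone and 0.25 with indomethacin. Fabp4, the lipid carrier used most often as a readout of PPARγ, had levels of 11.68, 11.51 and 10.89 on GQ16 arrays and 11.34, 11.17 and 10.26 on DMSO arrays. The groups overlapped, and the difference was 0.44 with a 95% interval of -0.11 to 0.98. With slide as a block it was 0.78 (limma adjusted p = 0.19). On slide 2 the levels were 11.68 for GQ16 replicate 1 and 10.26 for DMSO replicate 3, so the size depends on slide.

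Intervals of the other targets come from the fit without slide as a block and from 1 probe per gene. They cover neither differences between slides nor those between probes. For Plin2, which coats lipid droplets, the difference was 0.06 (-0.29 to 0.41), for the glycerol channel Aqp7 0.04 (-0.35 to 0.44), for Cidec, which fuses droplets, 0.00 (-0.33 to 0.34), and for Cd36, a fatty acid transporter, 0.18 (-0.20 to 0.57). Angptl4, an inhibitor of lipoprotein lipase, gave 0.30 (0.05 to 0.54; adjusted p = 0.19), and Gpd1, which makes the glycerol backbone of triglyceride, 0.63 (0.23 to 1.04; adjusted p = 0.096). Adiponectin (Adipoq), a fat cell hormone, had levels of 13.59, 13.72 and 13.67 on GQ16 arrays and 13.54, 13.38 and 13.28 on DMSO arrays. The groups did not overlap, but the difference of 0.26 had an adjusted p of 0.27, and 10.4% of all genes had every GQ16 array above every DMSO array.

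**Figure D3:**
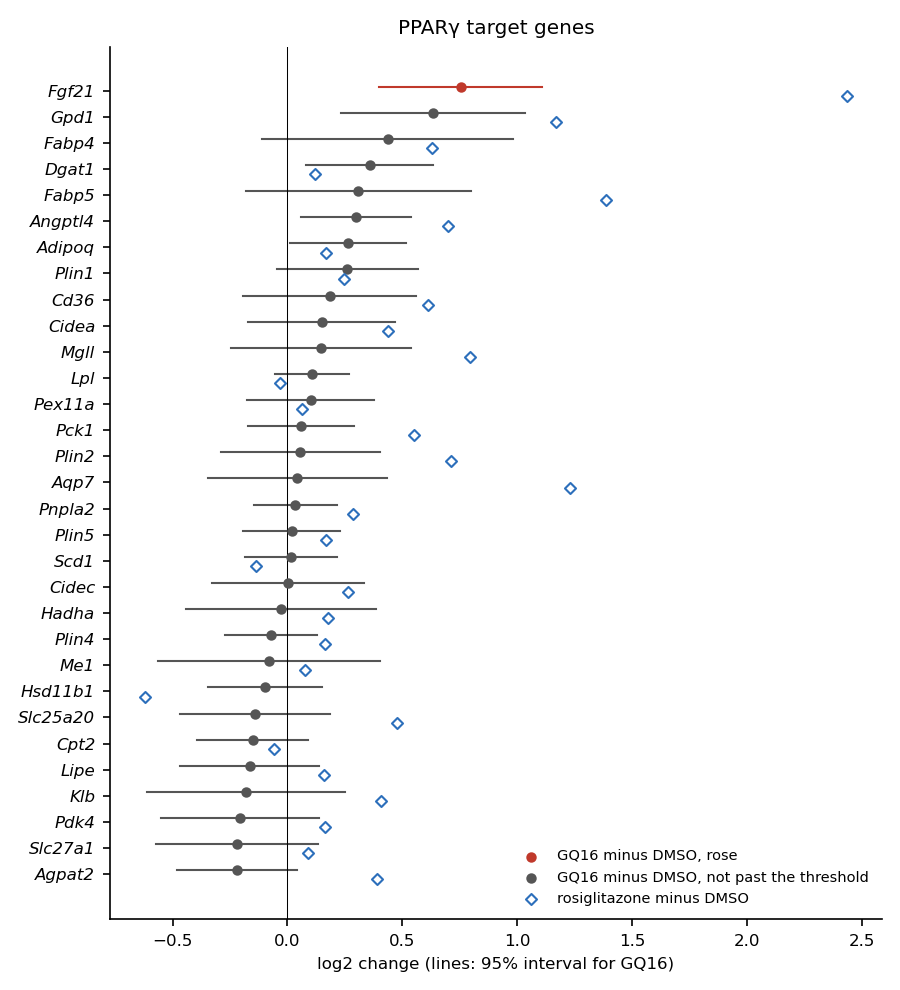
Log2 change of the 31 measured PPARγ target genes, GQ16 minus DMSO as dots with 95% intervals (red where the gene rose) and rosiglitazone minus DMSO as open diamonds against the same DMSO arrays. Of the dots, Fgf21 alone passed the threshold, and the intervals of Fgf21, Gpd1, Dgat1, Angptl4 and Adipoq lie above 0, with the diamonds of Fgf21, Fabp5, Aqp7 and Gpd1 farthest to the right.

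Pparg had levels of 13.44, 13.43 and 13.80 on GQ16 arrays and 13.82, 13.68 and 14.01 on DMSO arrays, a difference of -0.28 (-0.53 to -0.03; adjusted p = 0.23). Its 2 dimmer probes gave -0.90 and -0.85, so the size depends on the probe. Of 23 measured receptors and cofactors 0 rose and 1 fell, Ncoa4, which also carries ferritin to lysosomes, by 0.75 on the log2 scale (adjusted p = 0.11 with slide as a block). Ep300, an acetyltransferase, differed by -0.55 and Hdac3, a deacetylase, by 0.47, neither past the threshold. Rxra had a difference of 0.23, and the median of the list was -0.08. Of 27 genes of adipocyte differentiation 1 rose, Klf5, and 0 fell, with a median of 0.03. Of 18 adipokines 1 rose, again Fgf21, and the median was 0.05. Of the 13 adipocyte markers 0 rose and 1 fell, Slc2a4, with a median of 0.11. These counts stand beside 0.684% of all genes that rose and 0.748% that fell.

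The genes linked to the phosphorylation of PPARγ by Cdk5 had a median that depended on how slide was handled. Of 14 measured, 0 rose and 1 fell, beside 0.684% and 0.748% of all genes. The 1 was Ddx17, an RNA helicase, which fell by 0.53 on the log2 scale. The median was 0.03, with 0.10 under the slide block and 0.17 within slide 2, and 9 genes were higher and 5 lower whatever the p. At an unadjusted p under 0.05 the list had 1 gene higher, Adipoq, and 1 lower, beside 8.94% and 8.09% of all genes. With the slide block Ddx17 had an adjusted p of 0.062, and its 2 other probes were not called.

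Insulin signalling and glucose uptake gave 1 rise and 2 falls in 24 measured genes, beside 0.684% and 0.748% of all genes. Besides Irs2, Slc2a4, the insulin-responsive glucose transporter GLUT4, had levels of 11.11, 10.75 and 10.72 on GQ16 arrays and 11.37, 11.34 and 11.64 on DMSO arrays. It fell by 0.59 ± 0.15 on the log2 scale (limma adjusted p = 0.049), and by 0.47 with slide as a block (adjusted p = 0.19). Pik3ip1, an inhibitor of PI3 kinase, fell by 0.43 (adjusted p = 0.049, and 0.18 with the block), and its call was kept in none of the 6 fits that left out an array, at adjusted p of up to 0.16.

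In the list of fatty acid oxidation 2 of 31 measured genes rose and 0 fell, Acaa1b and Acads, a short-chain acyl-CoA dehydrogenase of mitochondria, which rose by 0.57 ± 0.11 (limma adjusted p = 0.014, and 0.054 with slide as a block). The median of that list was 0.05, and by unadjusted p 5 were higher and 0 lower. Over all genes 0.684% rose and 0.748% fell. Of 14 thermogenic genes 2 rose, Elovl3 and Fgf21, 11 were higher than with DMSO whatever the p, and by unadjusted p 5 were higher and 0 lower, beside 8.94% and 8.09% of all genes. Their median was 0.16, while Ppargc1a, the coactivator that drives mitochondrial growth, had a difference of 0.07 and Cidea 0.15. Elovl3 was also the 1 gene that rose among 29 genes of fatty acid and triglyceride synthesis (median 0.03). A probe for Ucp1, the uncoupler of brown fat, was not above background on any array.

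In lipolysis and lipid droplet proteins, 1 of 24 genes rose, Hcar2, the nicotinic acid receptor that restrains lipolysis, by 0.50 (adjusted p = 0.048, and 0.21 with the block). In cholesterol handling Npc1, which exports cholesterol from lysosomes, rose by 0.57, and Insig2, which retains the regulator of cholesterol synthesis in the endoplasmic reticulum, fell by 0.74, among 23 measured genes. Both lost the call with the block (0.13 each). In the prostaglandin list Cbr3 was the 1 gene of 16 that rose. Over all genes 0.684% rose and 0.748% fell.

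For 4 lists of central metabolism no gene passed the limma threshold. These were oxidative phosphorylation (41 genes, 4 higher and 0 lower by unadjusted p), the tricarboxylic acid cycle (26 genes, 6 and 2), branched-chain amino acid breakdown (22 genes, 3 and 3) and glycolysis and hypoxia (27 genes, 2 and 1). Their medians lay between -0.05 and 0.05, but 2 of them depended on slide. With slide as a block and within slide 2 the median was 0.12 and 0.16 for oxidative phosphorylation and 0.10 and 0.16 for the tricarboxylic acid cycle. For branched-chain amino acid breakdown it was 8.8e-05 and -0.07, and for glycolysis and hypoxia -0.03 and -0.01. Over all genes it was 0.0053 and -0.0078. Over all genes 8.94% were higher and 8.09% lower by unadjusted p.

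Among 28 measured inflammatory genes 0 rose and 2 fell, beside 0.684% and 0.748% of all genes. Vcam1, an adhesion molecule for leukocytes, had levels of 9.65, 9.57 and 9.97 on GQ16 arrays and 10.53, 10.46 and 10.52 on DMSO arrays, a fall of 0.77 ± 0.15 on the log2 scale (limma adjusted p = 0.014, and 0.058 with slide as a block). Orm2, an acute-phase glycoprotein, had levels of 11.07, 11.25 and 11.50 on GQ16 arrays and 11.88, 12.11 and 11.94 on DMSO arrays. It fell by 0.70 ± 0.14 on the log2 scale and by 0.75 with the block (adjusted p = 0.014 and 0.034), and it is also the 1 gene of 24 glucocorticoid targets that fell. The median of the inflammatory list was 0.00, and by unadjusted p 2 of its genes were higher and 6 lower. For the glucocorticoid targets these counts were 2 and 7, with a median of -0.11, or -0.01 with slide as a block. Over all genes 8.94% were higher and 8.09% lower by unadjusted p. Of 25 interferon genes 0 passed the limma threshold, with an unadjusted p under 0.05 for 2, both higher.

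The extracellular matrix list had 1 fall in 41 measured genes, Lox, beside 0.748% of all genes, and a median of -0.11. At an unadjusted p under 0.05 its counts were 3 higher and 12 lower, beside 8.94% and 8.09% of all genes. Fn1 (fibronectin) had a difference of -0.68 (adjusted p = 0.091) and Dcn (decorin) of -0.56 (0.067). Among 26 preadipocyte and fibroblast markers Tgfbi, a secreted matrix protein, fell by 0.73 (adjusted p = 0.035, and 0.15 with slide as a block), and the list median was -0.09 but 0.20 within slide 2. The mean level of these markers was 9.12 to 9.29 on GQ16 arrays and 9.21 to 9.39 on DMSO arrays, and their part in the matrix result was not tested.

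Stress and growth lists held at most 1 rise and 1 fall each, beside 0.684% and 0.748% of all genes. Of 35 amino acid stress genes driven by ATF4, 1 rose, Fgf21. By unadjusted p 11 were higher and 3 lower, beside 8.94% and 8.09% of all genes. The median of this list was 0.19, the highest of the lists with more than 10 measured genes. Herpud1, a stress protein of the endoplasmic reticulum, had a difference of 0.47 (adjusted p = 0.058) and the glycine transporter Slc6a9 of 0.75 (0.072). Of 35 genes of DNA replication and mitosis 1 rose, Birc5, and 1 fell, Ccne2 (cyclin E2), with a median of 0.15. Both lost the call with slide as a block (0.18 and 0.13). By unadjusted p 8 genes of this list were higher and 1 lower. In the lists of endoplasmic reticulum folding (22 genes), antioxidant and xenobiotic genes (38), circadian clock (17), immediate early genes (26) and ribosomal proteins (19) none passed, and at an unadjusted p under 0.05 the higher and lower counts were 2 and 1, 7 and 4, 2 and 4, 1 and 2, and 0 and 0.

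**Figure D4:**
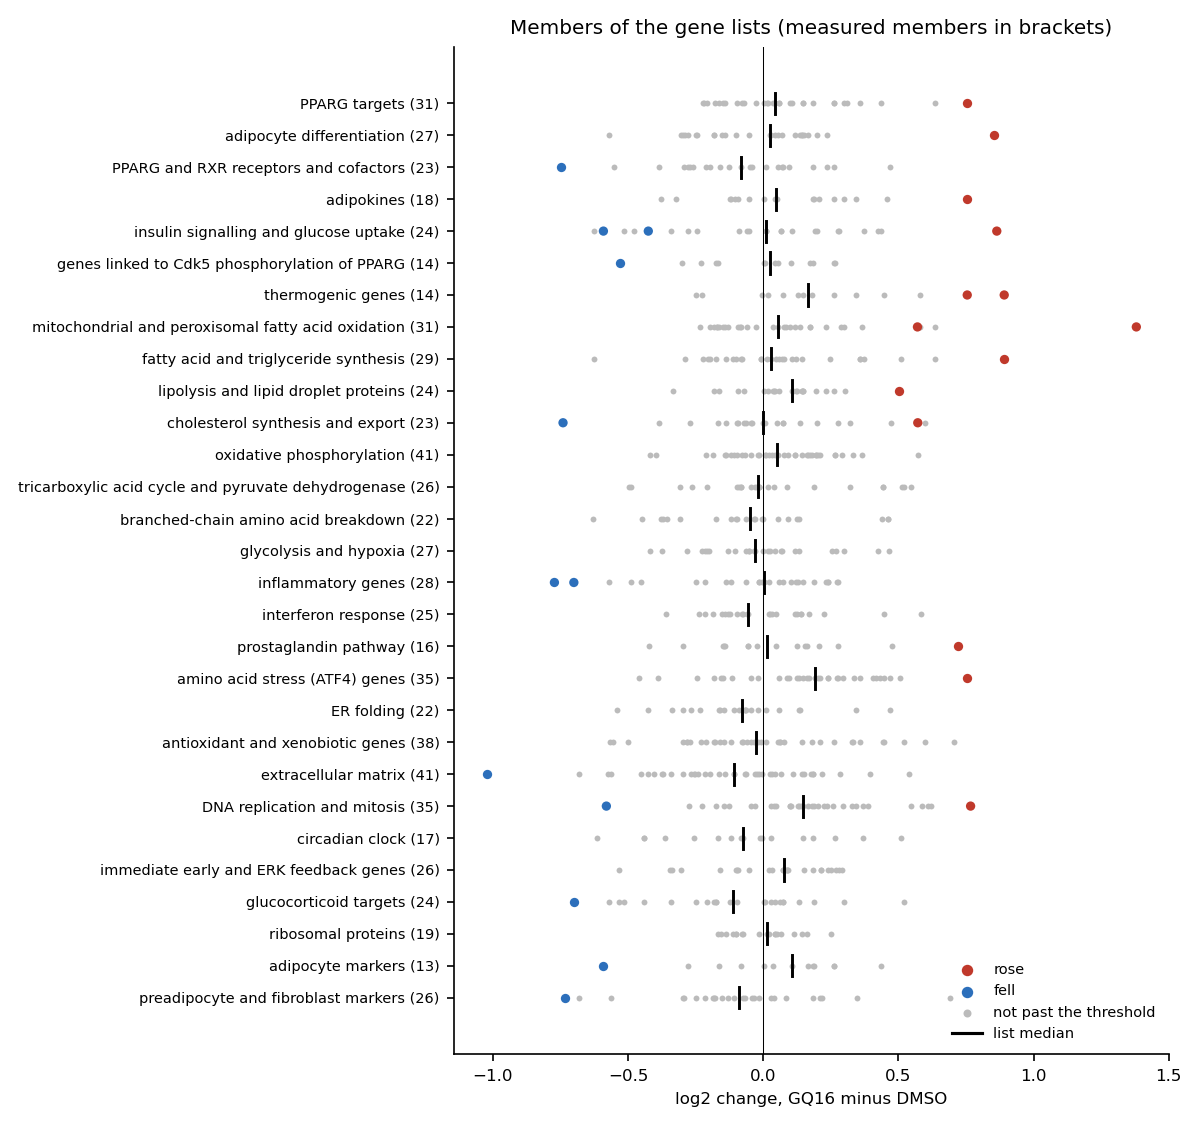
Log2 change (GQ16 minus DMSO) of every measured member of 29 gene lists, a row per list with the number of members in brackets; red and blue dots are genes that rose or fell, grey dots did not pass the threshold, and bars are list medians. Medians stay within 0.2 of 0 in every list shown, and coloured dots are single genes in most rows.

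Set against indomethacin at the same molar dose and time, GQ16 gave levels that differed for 1282 genes (11.7%), 834 higher (7.61%) and 448 lower (4.09%) with GQ16. Against rosiglitazone, at a dose 100 times lower, 1620 genes (14.8%) differed, 958 higher (8.74%) and 662 lower (6.04%). When each array was shifted to one median over the tested genes the split was 615 and 575 against indomethacin, and 720 and 932 against rosiglitazone, so the excess of higher genes shrank against indomethacin and turned round against rosiglitazone. Of the 75 genes that GQ16 raised over DMSO, 22 were higher, 9 lower and 44 not past the threshold against indomethacin, and 8 were higher, 12 lower and 55 not past it against rosiglitazone. Of the 82 that fell, 8, 21 and 53 were so placed against indomethacin, and 17, 21 and 44 against rosiglitazone. The 75 and the 82 were chosen by values of these same GQ16 arrays, so these counts are not an independent comparison. Slide 3 alone held GQ16 arrays with arrays of these 2 compounds, and differences within it rest on 2 GQ16 arrays against 2 of indomethacin and 1 of rosiglitazone, with no test.

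The largest called difference from indomethacin was that of Kcnn3, whose GQ16 levels, at 5.99 ± 0.18, were below background, against 8.34 ± 0.08 with indomethacin, at least 4.48-fold lower (limma adjusted p = 0.0046). Acaa1b and Fgf21, which rose with GQ16 over DMSO, were among the 8 largest lower differences from each compound. Acaa1b averaged 9.22 ± 0.31 with GQ16, against 10.55 ± 0.02 with indomethacin and 11.80 ± 0.08 with rosiglitazone (SD, n = 3 each). The differences were -1.34 ± 0.16 from indomethacin and -2.58 ± 0.16 from rosiglitazone (log2, SE; limma adjusted p = 2.9e-05 and 3.3e-10), and within slide 3 they were -1.21 and -2.50. Elovl3 averaged 9.56 ± 0.05 with GQ16 and 11.22 ± 0.42 with rosiglitazone, a difference of -1.66, and differed by -1.09 from indomethacin. Fgf21 differed by -1.31 from indomethacin and by -1.68 from rosiglitazone, and Krt23 by -1.20 and -1.35. For all 4 the differences kept an adjusted p under 0.05 with slide as a block.

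Orm2, Errfi1 and Itih4 were higher with GQ16 than with either compound. Orm2 averaged 11.28 ± 0.22 with GQ16 and 9.64 ± 0.19 with rosiglitazone, and the differences were 1.25 ± 0.14 from indomethacin and 1.64 ± 0.14 from rosiglitazone (limma adjusted p = 1.5e-05 and 5.1e-08). Errfi1, a feedback inhibitor of the EGF receptor, differed by 0.90 from indomethacin and 1.5 from rosiglitazone, and by -0.53 from DMSO (adjusted p = 0.057). Itih4, an acute-phase protein of the inter-alpha-trypsin inhibitor family, had levels of 10.24, 10.46 and 10.80 with GQ16 and 10.45, 10.35 and 10.64 with DMSO, while GQ16 was higher by 1.46 than indomethacin and by 1.63 than rosiglitazone. The chemokine Cxcl1 was lower with GQ16 than with either, at 8.44, 8.31 and 8.39 with GQ16 and 7.95, 8.07 and 8.44 with DMSO, and GQ16 differed by -1.22 from indomethacin and by -1.88 from rosiglitazone.

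For several of the GQ16 changes no difference from the other compounds passed the threshold, which does not show that they are equal. Irs2 differed by -0.07 from indomethacin (95% interval -0.38 to 0.24) and by -0.29 from rosiglitazone (-0.60 to 0.02). Sptlc1 differed by -0.16 (-0.44 to 0.12) from indomethacin and by -0.03 (-0.31 to 0.25) from rosiglitazone. Kdm6a differed by -0.36 ± 0.13 and -0.21 ± 0.13 (adjusted p = 0.063 and 0.26). Lox differed by 0.21 ± 0.14 from indomethacin (adjusted p = 0.37) but was 0.54 ± 0.14 higher than with rosiglitazone (0.014). Metrn was 0.48 ± 0.15 higher with GQ16 than with indomethacin (adjusted p = 0.036, and 0.063 with slide as a block) and differed by 0.32 ± 0.15 from rosiglitazone (0.15).

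**Figure D5:**
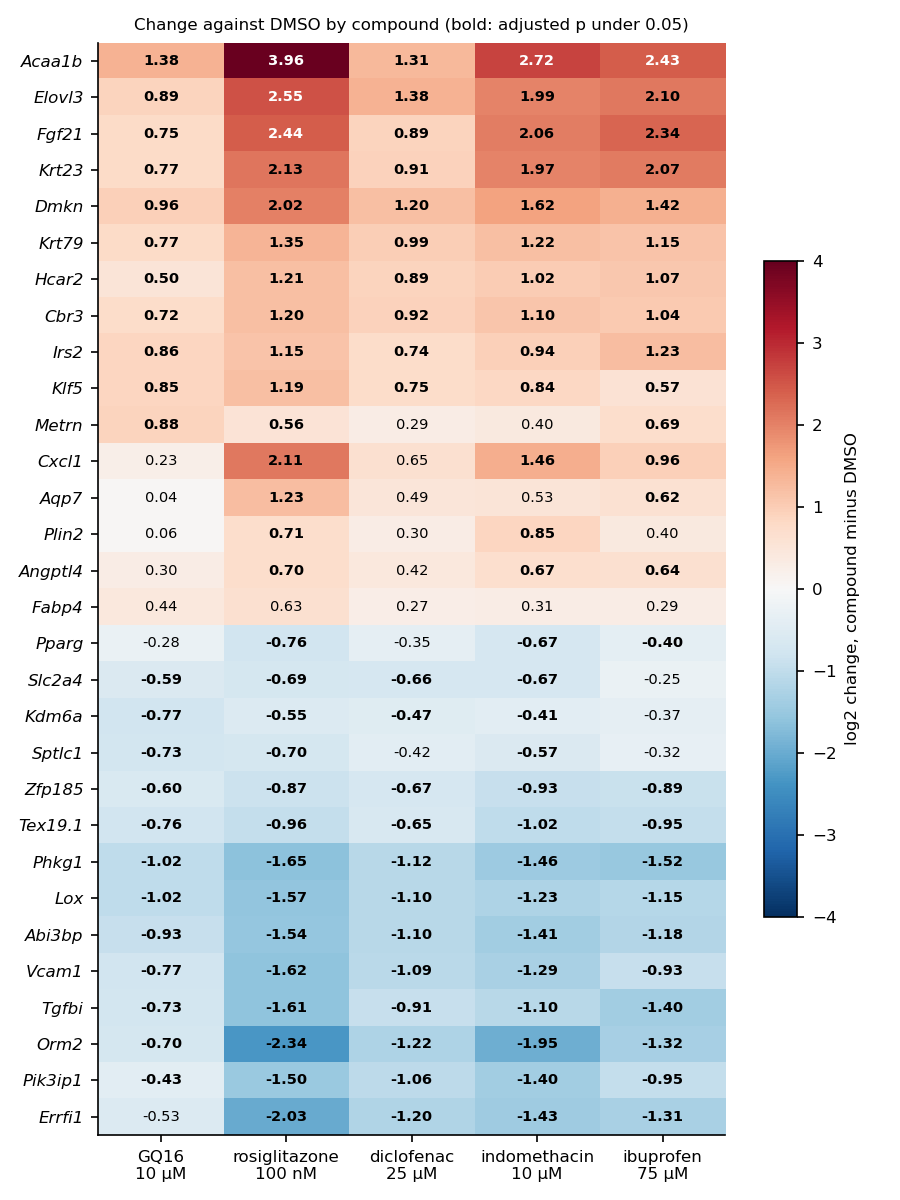
Log2 change against DMSO for 30 named genes (down the page) by compound and dose (across), with GQ16 in the first column and all 5 columns sharing the 3 DMSO arrays; colour and printed number give the change and bold marks an adjusted p under 0.05. GQ16 has the palest cells for Acaa1b, Elovl3, Fgf21, Cxcl1, Orm2 and Errfi1 next to rosiglitazone, indomethacin and ibuprofen, and the darkest of the 5 for Metrn and Kdm6a.

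Over all genes 7.61% were higher and 4.09% lower with GQ16 than with indomethacin, and 8.74% and 6.04% than with rosiglitazone, and the list counts that follow are descriptions beside these shares. Of 31 PPARγ targets, 1 was higher and 7 lower with GQ16 than with indomethacin, and 1 was higher and 9 lower than with rosiglitazone, with median differences of -0.13 and -0.29 beside 0.0099 and 0.016 over all genes. Against both compounds Fgf21, Plin2, Angptl4, Slc25a20 (the carnitine carrier) and Fabp5 were lower, and Aqp7 was lower than with rosiglitazone by 1.19. With slide as a block the 7 lower than with indomethacin became 5, since Angptl4 and Pdk4 lost the call (adjusted p = 0.069 and 0.063). The 7 against indomethacin became 3 or 4 without any one of the 3 indomethacin arrays or without GQ16 replicate 2. Of 41 matrix genes 10 were higher and 0 lower than with indomethacin, and 15 and 0 than with rosiglitazone, among them Col1a1 (by 1.00 and 0.74), Sparc (0.58 and 0.57), Mmp2 (0.53 and 0.58) and Mmp14 (0.82 and 0.75). The 10 became 5 without indomethacin replicate 1, and the 15 became 10, with 1 lower, without rosiglitazone replicate 2. With slide as a block the matrix counts were 11 and 0 against indomethacin, and 14 and 2 against rosiglitazone. Fn1, Lum and Timp1 then lost the call against rosiglitazone (limma adjusted p = 0.17, 0.068 and 0.059). With arrays shifted to one median the counts were 7 and 0, and 11 and 1. Preadipocyte and fibroblast markers ran the same way, with 5 of 26 higher and 1 lower than with indomethacin and 8 and 1 than with rosiglitazone, and Col1a1, Fn1 and Lum stand in both lists. The 5 became 3 without GQ16 replicate 3, DMSO replicate 2, indomethacin replicate 1 or indomethacin replicate 3, and the 8 became 5 without GQ16 replicate 3 or rosiglitazone replicate 2.

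Of 26 immediate early and ERK feedback genes, 1 was higher and 6 lower with GQ16 than with indomethacin, and 1 was higher and 9 lower than with rosiglitazone. The transcription factors Fos (-1.18 and -1.22), Egr1 (-1.20 and -0.81) and Egr2 (-1.10 and -1.02) and the phosphatase Dusp5 (-1.04 and -1.24) were lower against both, and Errfi1 was the 1 higher. With slide as a block Egr1 lost the call against rosiglitazone (adjusted p = 0.058). Against DMSO the same 4 genes had differences of 0.09 for Fos, -0.34 for Egr1, 0.15 for Egr2 and 0.09 for Dusp5, none past the threshold. Of 28 inflammatory genes 7 were higher and 2 lower than with indomethacin, and 10 and 2 than with rosiglitazone. The acute-phase genes Orm1, Lcn2, Hp and Serpina3n were among the higher against both, and Cxcl1 and Tnfaip3, an inhibitor of NF-κB, were the 2 lower against both, although Tnfaip3 lost the call against indomethacin with slide as a block (adjusted p = 0.061). The 7 became 3 without GQ16 replicate 3, indomethacin replicate 1 or indomethacin replicate 3, and the 10 became 6 without GQ16 replicate 1, GQ16 replicate 3 or rosiglitazone replicate 2. Of 24 glucocorticoid targets 7 were higher and 3 lower than with indomethacin, and 10 and 2 than with rosiglitazone, with median differences of 0.19 and 0.29. The list shares genes with those above, among them Orm1, Orm2, Lcn2, Saa3, Errfi1, Dusp1, Angptl4, Pdk4 and Hsd11b1. All its lower members stand in another of these lists too: Angptl4, Dusp1 and Pdk4 against indomethacin, and Angptl4 and Dusp1 against rosiglitazone. Against both, Ddit4, an inhibitor of mTOR signalling, and Agt (angiotensinogen) were higher. The 3 lower became 1 with slide as a block or without GQ16 replicate 2, and 0 without indomethacin replicate 1 or 3.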

How the data were processed

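Total RNA of each sample was labelled and hybridised to 1 Illumina mouse BeadChip array. The values used are log2 intensities that the authors processed and deposited, 1 per probe and array, with GenomeStudio and lumi named per the submitters' processing notes; versions and settings: not given in the sources used here. Base 2 was inferred from the highest value, and the sorted values of the 18 arrays were equal within 0.002, as quantile normalization leaves them. Such values are compressed for dim probes and hide a shift shared by most genes, and no depth applies. Another table holds 36 value columns that match no sample by name and was not used here.

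Of 45281 probes, 34885 had 1 gene symbol, 18 several and 10378 none; 34807 matched a RefSeq table (GRCm38.p6) by Entrez number. Background was the 95th percentile of 1528 probes of olfactory, vomeronasal or trace amine receptor genes. Probes above it on at least 3 arrays were kept (21133, of which 17675 had 1 symbol), and the brightest probe stood for a gene.

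Limma 3.58.1 in R 4.3.3 fitted 1 mean per group over 18 arrays (12 residual degrees of freedom, 11.9 prior) with an intensity trend, two-sided moderated tests and Benjamini-Hochberg adjustment over all genes of a comparison. A gene rose or fell at an adjusted p under 0.05, and one below background on all arrays of a group has a bound for its fold. The test was checked on simulated data.

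Named genes were the 20 largest called rises and falls, genes past 2-fold, called list members with up to 3 of lowest p in each list, a set of adipocyte and PPARγ genes and the 8 largest differences each way from rosiglitazone and indomethacin; others are said to have been named after their values were seen. The 33 lists held 862 genes, of which 644 were measured and 20 called. The members and lists were chosen with earlier results of these data known. Alternatives were slide or replicate number as a block, arrays left out, other scalings, filters, probe rules and variance models.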

Additional observations from a re-analysis of the deposited data

How the results depend on the processing

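The count of 157 called genes between GQ16 and DMSO was 37 with slide as a block, 3 with only the 6 arrays of both groups in the fit, 96 with no filter on dim probes and 708 with array quality weights, and the causes were not tested beyond the fewer arrays in the second and the more genes in the third. Leaving out single arrays of these 2 groups gave 11 (DMSO replicate 1) to 256 (GQ16 replicate 1). The count was 15 without DMSO replicate 2, and 55 and 67 without GQ16 replicates 3 and 2. Arrays of the other compounds also moved it, since they entered the same fit. Without rosiglitazone replicate 1, 227 genes rose and 250 fell, and without indomethacin replicate 1, 43 rose and 47 fell. With arrays of the 2 compared groups left out, the count against indomethacin, 1282, ran from 431 (indomethacin replicate 1) to 1371 (GQ16 replicate 1). That against rosiglitazone, 1620, ran from 1086 to 1652. Without rosiglitazone replicate 1, 1167 genes were higher and 749 lower than with indomethacin. Without DMSO replicate 3, 1056 were higher and 754 lower than with rosiglitazone. With replicate number as a block the counts were 137, 1250 and 1574, and 129 of the 157 calls remained. Deviations of same-numbered GQ16 and DMSO arrays correlated at 0.0032, 0.049 and 0.13. These values cannot decide whether the numbers pair samples, since each such pair lay on different slides. Counts under median shift, cyclic loess, the stricter filter, averaged probes and no intensity trend (154 to 230 against DMSO) stayed within 1.5 times. No called gene changed sign under any setting. With arrays left out, and within slide 2, the sign could not change, since in all 157 every GQ16 array lay on one side of every DMSO array. The background correction of the non-normalized signals and the filter on detection p were not run, because their columns match no sample. The number of arrays limits precision, and dim genes such as Tex19.1 and Zfp185 have compressed differences.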

Other observations

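The families below were picked out after their values were seen and have no test. Over all genes, 51.8% were higher with GQ16 than with DMSO and 0.684% rose. Of 46 measured proteins of the large mitochondrial ribosomal subunit, 37 (80.4%) were higher with GQ16 than with DMSO, Mrpl15 and Mrpl2 rose and 0 fell, and the median difference was 0.21, beside 0.0088 over all genes. It was 0.22 with slide as a block and 0.20 within slide 2. Of 27 proteins of the small subunit, 20 (74.1%) were higher, Mrps16 and Mrps18b rose, and the median was 0.20. All 4 of these calls were lost with slide as a block (adjusted p = 0.14 to 0.18). Cytosolic ribosomal proteins had a median of 0.01 over 19 genes.

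Of 13 measured genes of the clustered histone H2A family, 11 (84.6%) were higher with GQ16 than with DMSO and 5 rose (H2ac7, H2ac11, H2ac12, H2ac15 and H2ac24), with a median of 0.33 over the family, 0.38 with slide as a block and 0.60 within slide 2. All 5 calls were lost with slide as a block (adjusted p = 0.095 to 0.19). These genes are near-identical copies, so their probes may read the same transcripts and are not independent. Among 14 measured keratins Krt23 and Krt79 rose, and the family median was 0.10.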
